A study of Mus musculus with 16 samples.

Results

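Ube2b, Plekhh1, Acbd3, Lasp1, Mzt1 and Trappc13 are 6 genes of the 18193 with a symbol of their own on the array, each with 1 probe set that was lower in the hippocampus of mice given an antisense oligonucleotide against the amyloid beta precursor protein (AβPP antisense) than in mice given a random oligonucleotide (Random antisense). A probe set is a group of short probes that reads 1 stretch of a transcript, and 49.5% of these genes have several on the array. The genes were chosen on that difference: of their 27 probe sets, 24 were tested and 6, 1 per gene, had a lower value with an adjusted p under 0.05 in limma's fit across all probe sets, against 0.0711% of all 23905 probe sets tested. That count is therefore a description of the choice and nothing is read from it. At the same threshold 5 other genes had lower probe sets, among them Kcna6 with 1 of 3 tested and Rcan2 with 1 of 2. A single lowered probe set among several was thus not particular to the 6 genes. Where a probe set was lower, the question is whether the gene's other probe sets, on the same arrays, were lower too.

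Hippocampal RNA of 16 male mice aged 12 months was hybridised to 1 array per mouse, in 4 groups of 4. Control mice, untreated, came from a 50% backcross between SAMP8 and CD-1 stock and have no memory deficit. The other 3 groups were SAMP8 mice, a senescence-accelerated line with memory deficits at that age: untreated (SAMP8), given Random antisense intravenously, or given AβPP antisense intravenously. Treated animals were of the SAMP8 line only, and the sequence and dose of the oligonucleotides were not used here. The treatment label of Random antisense 1 reads no treatment, against its title and source, and the array was kept with Random antisense.

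The 6 genes belong to unlike parts of the cell. Ube2b encodes an E2 enzyme, a RAD6 homologue, which hands ubiquitin to substrates such as histone H2B with a partner ligase. Trappc13 is a subunit of the TRAPP tethering complex, and Acbd3 is a Golgi scaffold that recruits a phosphatidylinositol kinase. Both serve membrane traffic between the endoplasmic reticulum, the Golgi and later compartments. Mzt1 is a small protein of the gamma-tubulin ring complex, from which microtubules grow. Lasp1 is a LIM and SH3 domain protein bound to actin filaments, and Plekhh1 carries pleckstrin homology, MyTH4 and FERM domains. Values below are the deposited log2 values, in which a difference of 1 is a doubling, differences carry the SE of the limma fit and group means carry the SD of 4 arrays. The fit takes 1 spread per probe set for all 4 groups. For the lower probe set of Mzt1 the SD was 0.66 after AβPP antisense and 0.09 after Random antisense. For that of Trappc13 it was 0.10 and 0.23. Where the AβPP antisense arrays spread more, the SE and interval of their difference from another group can be too small. A probe set's level depends on its probes, so only its change between groups is read here.

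The AβPP antisense arrays stood apart in measures that bear on all 6 genes. The difference between the 3' and 5' control probe sets of beta-actin, which grows as RNA is degraded, was 1.60, 1.60, 1.21 and 3.89 on AβPP antisense arrays 1 to 4, against 0.84 to 1.36 on the other 12 arrays. For Gapdh it was -0.09, 0.02, -0.35 and 1.26, against -0.41 to -0.30. So array 3 lay inside the range of the other 12 by both measures, and array 4 far outside it. Of the hippocampal neuron markers, 11 of 12 passed the filter, and their summed level was 15.71 to 16.17 after AβPP antisense and 16.20 to 16.28 after Random antisense. Of the 9 choroid plexus markers tested, 9 were negative in AβPP antisense minus Random antisense, with a median of -2.34, 0 passed the threshold, and their summed level was 11.18 to 15.30 against 15.30 to 15.78. The other 3 choroid plexus markers and 1 neuron marker did not pass the filter. By summed level, other lists lay higher without overlap. Endothelial and mural cells (7 of 10 tested) were at 11.89 to 12.32 against 11.34 to 11.73. Microglia (9 of 10) were at 12.61 to 12.87 against 12.19 to 12.46, and erythroid cells (2 of 6) at 5.65 to 10.17 against 5.03 to 5.37. In these 3 lists 1 of 7, 2 of 9 and 0 of 2 markers were negative. A summed level rests mostly on the brightest markers. The mean log2 of the microglia markers on AβPP antisense 4 was 8.05, below the 8.20 to 8.54 of Random antisense. For the neuron markers it was 10.79, 9.73, 10.89 and 9.88 on AβPP antisense arrays 1 to 4, against 10.47 to 10.69. Arrays 1 and 3 thus lay above all Random antisense arrays and arrays 2 and 4 below them. The neuron sum of Control 4, 15.67, was under that of every AβPP antisense array. For the endothelial and mural markers the mean log2 on AβPP antisense 3 was 8.03, within the 7.67 to 8.19 of Random antisense. Untreated arrays also reached high sums, with Control 4 at 13.23 for microglia and SAMP8 4 at 8.10 for erythroid cells. Thalamus markers (7 of 7) lay at 11.56 to 13.08 against 12.58 to 13.24, astrocyte markers (8 of 8) at 15.89 to 16.40 against 16.08 to 16.12, and leukocyte markers (2 of 10) at 10.63 to 11.52 against 11.16 to 11.36, with Control 4 at 14.08. None of these markers passed the threshold in AβPP antisense minus Random antisense. In whole tissue, fewer cells of a type and less RNA per cell cannot be told apart. The part of these measures in the results below was not tested, apart from fits without single arrays and with the beta-actin difference as a covariate.

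Ube2b had the largest difference of the 6. Its lowered probe set (1430177_at) read 5.21, 4.55, 5.21 and 3.23 on arrays 1 to 4 of AβPP antisense. The Random antisense arrays gave 7.62, 7.63, 7.996 and 7.67, those of SAMP8 7.88, 7.80, 8.36 and 7.84, and those of Control 7.60, 7.43, 7.82 and 6.62. All 4 AβPP antisense arrays lay below every one of the other 12, and array 4, the lowest, lay under the filter level of 4. The mean was 4.55 ± 0.93 against 7.73 ± 0.18 after Random antisense, a difference of -3.18 (SE 0.37). Array 4 makes this size uncertain, and without it the difference was -2.74. The 3 other probe sets differed by far less. The brightest read 12.60, 11.74, 12.35 and 10.31 on AβPP antisense arrays 1 to 4 and 12.11, 12.21, 12.17 and 12.10 after Random antisense, so that arrays 1 and 3 were above and arrays 2 and 4 below all Random antisense arrays. Its difference was -0.40 (SE 0.34). The next read 11.45, 10.73, 11.38 and 9.95, a difference of -0.28 (SE 0.27), and the last 9.97, 10.95, 10.76 and 10.76, a difference of 0.04 (SE 0.25). On array 3 the lowered probe set was 2.51 below the Random antisense mean, while the 3 others were at 12.35, 11.38 and 10.76 against Random antisense means of 12.15, 11.16 and 10.57.

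**Figure D1:**
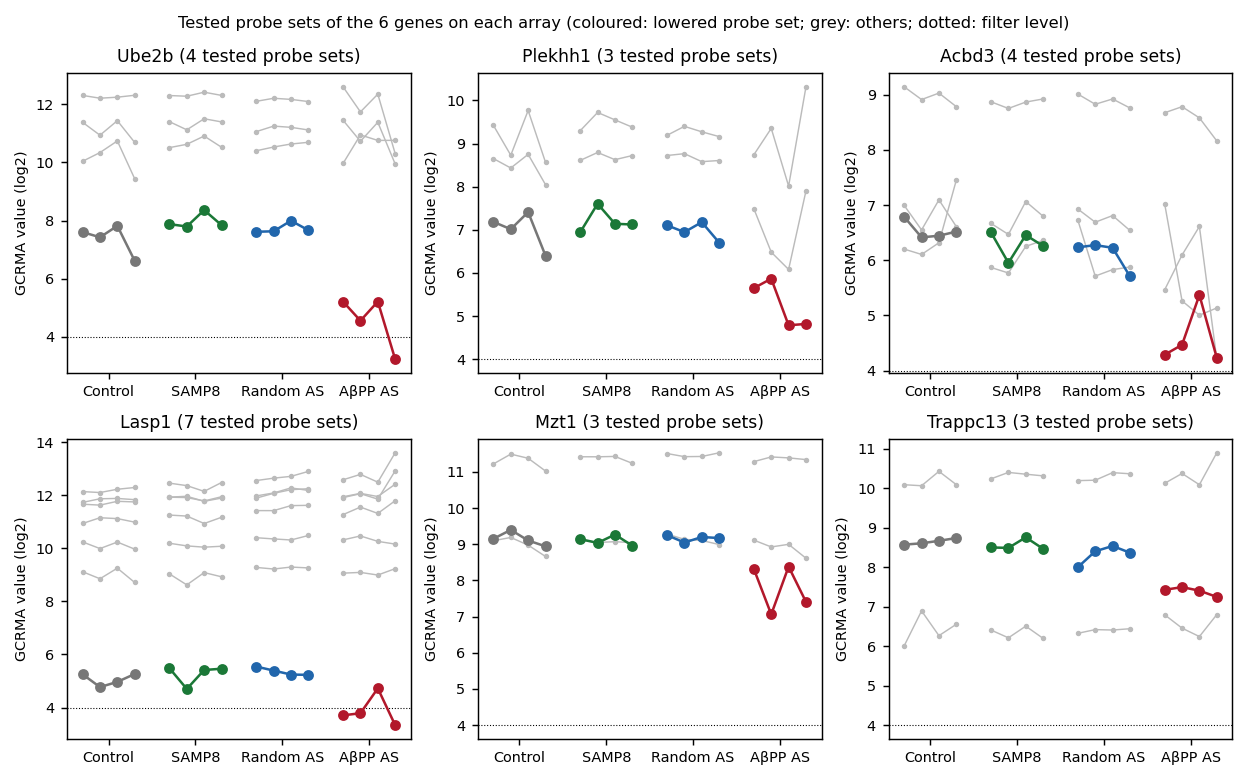
GCRMA value (log2) of each tested probe set of the 6 genes on each of the 16 arrays, 4 per group in replicate order, with the lowered probe set in colour, the others in grey and the filter level of 4 dotted; replicates have no order and lines only join a probe set's points within a group. The lowered probe set of Ube2b sits at 3.23 to 5.21 after AβPP antisense and at 6.62 to 8.36 elsewhere. Its 3 other probe sets overlap between AβPP antisense and each other group.

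Trappc13 had the smallest difference and the most even one. Its lowered probe set (1418667_at) read 7.42, 7.49, 7.40 and 7.25 on arrays 1 to 4 of AβPP antisense. The Random antisense arrays gave 7.997, 8.40, 8.53 and 8.36, those of SAMP8 8.50, 8.49, 8.75 and 8.46, and those of Control 8.57, 8.60, 8.66 and 8.73. The 4 AβPP antisense arrays lay below all others and their SD of 0.10 was under that of Random antisense, 0.23. The difference was -0.93 (SE 0.12), 1.91-fold lower. The brighter of its other probe sets read 10.12, 10.37, 10.08 and 10.89 after AβPP antisense and 10.19, 10.20, 10.39 and 10.36 after Random antisense, a difference of 0.08 (SE 0.16). The third read 6.79, 6.45, 6.24 and 6.80 against 6.32, 6.42, 6.41 and 6.44, a difference of 0.17 (SE 0.18). Both overlapped between the groups, and both differences were above 0.

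Acbd3 was lower more broadly. Its lowered probe set (1452137_at) read 4.29, 4.47, 5.37 and 4.23 on arrays 1 to 4 of AβPP antisense. The Random antisense arrays gave 6.23, 6.28, 6.23 and 5.71, those of SAMP8 6.50, 5.95, 6.46 and 6.26, and those of Control 6.79, 6.42, 6.44 and 6.52. The AβPP antisense arrays lay below all others, with array 3 the nearest to them, and the difference was -1.52 (SE 0.23), 2.87-fold lower. A second probe set, designed on the same sequence record, read 5.47, 6.10, 6.61 and 4.21 against 6.93, 6.69, 6.81 and 6.54 after Random antisense. It differed by -1.15 (SE 0.36), and its array 3 overlapped with Random antisense. The brightest read 8.67, 8.78, 8.58 and 8.16 against 9.01, 8.83, 8.92 and 8.76, a difference of -0.33 (SE 0.13), and the last differed by -0.43 (SE 0.41), with AβPP antisense 1 at 7.02 above every Random antisense array. All 4 probe sets of Acbd3 thus had differences under 0, though the groups overlapped for 3 of them.

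Mzt1 was lower on 1 of 3 probe sets designed on the same sequence record. The lowered one (1434664_at) read 8.32, 7.06, 8.38 and 7.41 on arrays 1 to 4 of AβPP antisense. The Random antisense arrays gave 9.25, 9.05, 9.20 and 9.17, those of SAMP8 9.14, 9.04, 9.27 and 8.96, and those of Control 9.15, 9.40, 9.11 and 8.94. Arrays 2 and 4 were the lowest, the groups did not overlap, and the difference was -1.38 (SE 0.24), 2.60-fold lower. The brightest probe set read 11.29, 11.42, 11.39 and 11.34 after AβPP antisense and 11.51, 11.42, 11.43 and 11.53 after Random antisense, a difference of -0.11 (SE 0.11), without overlap by less than the last digit shown. The other read 9.11, 8.93, 9.0 and 8.62 against 9.28, 9.14, 9.11 and 8.99, a difference of -0.22 (SE 0.13). The remaining probe set of Mzt1, at 2.06 to 2.26 on all arrays, did not pass the filter.

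Lasp1 has 9 probe sets, of which 7 were tested. The lowered one (1448207_at) read 3.71, 3.79, 4.72 and 3.34 on arrays 1 to 4 of AβPP antisense. The Random antisense arrays gave 5.54, 5.39, 5.24 and 5.23, those of SAMP8 5.48, 4.70, 5.41 and 5.46, and those of Control 5.25, 4.77, 4.97 and 5.26. The groups did not overlap with Random antisense, but array 3 lay above SAMP8 2. Arrays 1, 2 and 4 were under the filter level, so the size of the difference, -1.46 (SE 0.25), 2.76-fold lower, is uncertain. The other 6 tested probe sets, 5 of them of the x_at type that can share probes with other sequences, differed by -0.17 to 0.16, with 4 of them negative, and overlapped between the groups. The one designed on the same sequence record as the lowered one read 10.32, 10.47, 10.26 and 10.16 against 10.40, 10.35, 10.31 and 10.48, a difference of -0.09 (SE 0.10). The brightest read 12.58, 12.79, 12.49 and 13.60 against 12.55, 12.64, 12.71 and 12.90, with array 4 the highest of all 16. The probe sets left out by the filter lay at 2.51 to 2.85 and 1.51 to 1.58.

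Plekhh1 did not have a single lowered probe set in its values, although only 1 passed the threshold. That one (1452517_at) read 5.65, 5.87, 4.79 and 4.82 on arrays 1 to 4 of AβPP antisense. The Random antisense arrays gave 7.10, 6.95, 7.18 and 6.70, those of SAMP8 6.94, 7.60, 7.14 and 7.12, and those of Control 7.18, 7.01, 7.41 and 6.40. The 4 arrays lay below all others, and the difference was -1.70 (SE 0.26), 3.25-fold lower. A second probe set read 7.49, 6.48, 6.08 and 7.90 against 8.72, 8.76, 8.58 and 8.61 after Random antisense. Its groups did not overlap either and it differed by -1.68 (SE 0.30), with an adjusted p of 0.0615 in limma, next to Mzt1 and Lasp1 at 0.0479 on the inner side of the threshold. The third read 8.74, 9.35, 8.01 and 10.31 against 9.19, 9.40, 9.27 and 9.16, a difference of -0.15 (SE 0.38), in which array 3 was the lowest and array 4 the highest of all 16. Plekhh1 is known from myelinating cells, and of the oligodendrocyte markers 11 of 12 were tested, 8 were negative with a median of -0.18 and 0 passed. Their summed level was 15.96 to 16.48 after AβPP antisense and 16.25 to 16.46 after Random antisense.

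The other tested probe sets differed by -0.40 to 0.04 for Ube2b, -0.17 to 0.16 for Lasp1, -0.22 to -0.11 for Mzt1 and 0.08 to 0.17 for Trappc13. For Acbd3 they differed by -1.15 to -0.33 and for Plekhh1 by -1.68 to -0.15. The genes were chosen on a lowered probe set in this comparison, so the contrast between probe sets is a description. Averaged within genes and then over the 6, the others lay at -0.34 to -0.08 on the AβPP antisense arrays. The Random antisense arrays lay at 0.09 to 0.13, but for Trappc13 both others were higher after AβPP antisense. Of the 18 other tested probe sets of the 6 genes, 13 had a negative difference, with a median of -0.13 and a range of -1.68 to 0.17. For all probe sets tested the share of negative differences was 49% and the median 0.01. The AβPP antisense arrays lay wholly below Random antisense for 2 of the 18, the second one of Plekhh1 and the brightest of Mzt1, against 3.71% of all probe sets.

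**Figure D2:**
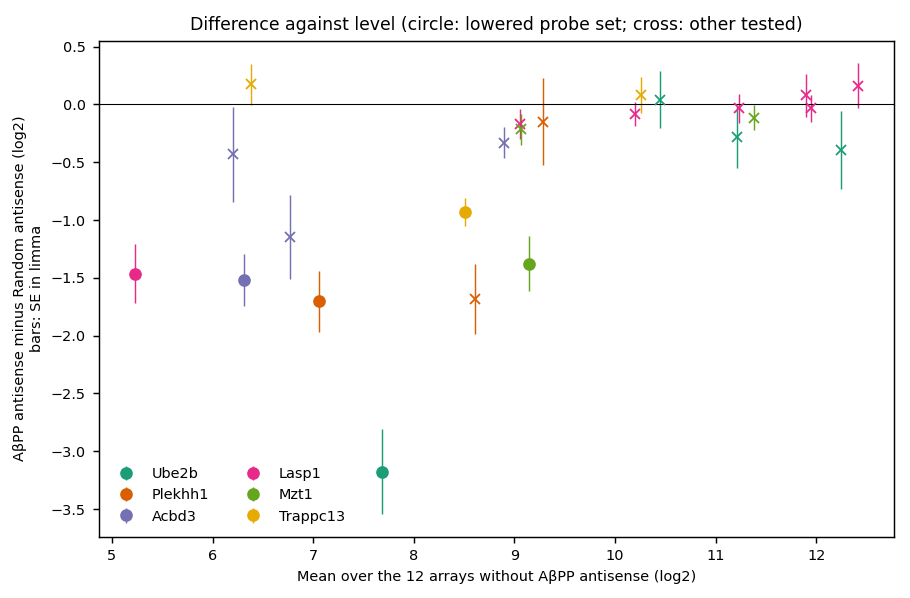
AβPP antisense minus Random antisense (log2, bars are the SE in limma) of the 24 tested probe sets against their mean over the 12 arrays without AβPP antisense (log2); circles are the lowered probe sets, crosses the others, 1 colour per gene. The crosses of Plekhh1 at -1.68 and of Acbd3 at -1.15 fall among the circles, and those of Lasp1, Mzt1, Trappc13 and Ube2b lie between -0.40 and 0.17.

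To set each lowered probe set against its own gene on each array, the gap was computed as its value minus the mean of the gene's other tested probe sets. The gap of Ube2b was -6.13, -6.59, -6.29 and -7.11 on AβPP antisense arrays 1 to 4, against -3.58, -3.70, -3.34 and -3.64 after Random antisense. The change was -2.97 (SE 0.19). For Lasp1 the change was -1.45 (SE 0.31), for Mzt1 -1.21 (SE 0.22), for Trappc13 -1.06 (SE 0.17), for Acbd3 -0.88 (SE 0.25) and for Plekhh1 -0.79 (SE 0.35). The gap of Trappc13 was -1.03, -0.92, -0.76 and -1.60 after AβPP antisense and -0.26, 0.09, 0.14 and -0.04 after Random antisense. The AβPP antisense arrays lay wholly below Random antisense in the gap of all but Plekhh1, against 2.98% of all gaps. For Plekhh1 arrays 1 to 4 read -2.47, -2.05, -2.26 and -4.29 against -1.85, -2.14, -1.75 and -2.18. Without AβPP antisense 4 the change of Plekhh1 was -0.28, closer to 0 than with it. In the fit across 14291 gaps of 5316 genes, those of Ube2b and Trappc13 had an adjusted p under 0.05 in limma, where 0.042% of all gaps were lower at that threshold. The contrast chose these probe sets, so this is a description too.

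**Figure D3:**
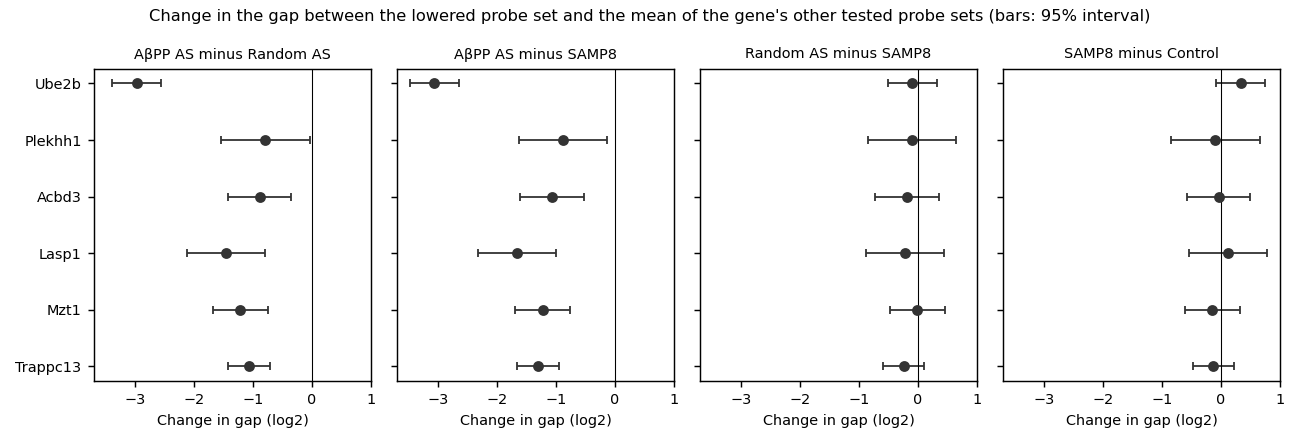
Change in the gap between the lowered probe set and the mean of the other tested probe sets of its gene (log2), for the 6 genes in 4 comparisons of groups, with 95% intervals from limma. The 6 points lie between -2.97 and -0.79 in AβPP antisense minus Random antisense and between -0.14 and 0.34 in SAMP8 minus Control.

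The comparison of the lines, untreated SAMP8 minus Control, does not enter the difference that chose the genes, although all 16 arrays set the spread in the fit behind that choice. Of the 24 probe sets 0 passed in limma, against 0.36% of all probe sets, and 0 had an unadjusted p under 0.05, against 4.38% of all. The groups did not overlap for 1 of the 24, a probe set of Lasp1 at 0.19, against 4.81% of all. The 6 lowered probe sets differed by -0.25 to 0.60, with 3 negative and a smallest unadjusted p of 0.12 for Ube2b (adjusted p = 0.999 in limma for each). The gaps differed by 0.34 for Ube2b (95% interval -0.08 to 0.75), 0.13 for Lasp1 (-0.53 to 0.79), -0.04 for Acbd3 (-0.58 to 0.50), -0.09 for Plekhh1 (-0.84 to 0.66), -0.12 for Trappc13 (-0.48 to 0.23) and -0.14 for Mzt1 (-0.61 to 0.32). Of the 6 gaps 0 passed, against 0.308% of all gaps. The 4 SAMP8 gaps of Ube2b lay above the 4 of Control (-3.53, -3.55, -3.25 and -3.57 against -3.64, -3.74, -3.66 and -4.20), as gaps that do not overlap did in 1 direction or the other for 4.16% of all. Control 4 was the lowest Control array for Ube2b and stood apart across the array, with a median correlation of 0.922 with the others. Without it the difference was 0.35 for the Ube2b probe set, 0.21 for its gap and -0.00046 for the Plekhh1 probe set, which was 0.20 with it. The 6 lowered probe sets then differed by -0.26 to 0.35 and their gaps by -0.13 to 0.21, and 0 passed in limma.

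The other comparisons share arrays with the one that chose the genes and are given beside it. In AβPP antisense minus untreated SAMP8 the lowered probe sets differed by -3.42 (SE 0.37) for Ube2b, -1.92 (SE 0.26) for Plekhh1, -1.70 (SE 0.23) for Acbd3, -1.38 (SE 0.25) for Lasp1, -1.31 (SE 0.24) for Mzt1 and -1.16 (SE 0.12) for Trappc13. The same 4 AβPP antisense arrays enter both. Of the gaps, 4 of 6 passed there, and 0.406% of all gaps were lower at that threshold. There 7 of the 24 passed, the seventh being the second probe set of Plekhh1 at -1.70, where 0.251% of all probe sets were lower. In Random antisense minus untreated SAMP8 the lowered probe sets differed by -0.24 to 0.09, and 0 of the 24 passed, against 0% of all. At an unadjusted p under 0.05 there were 3 of the 24, all of Lasp1 at 0.29 to 0.37 and none its lowered one, against 1.12% of all. Of the 6 other probe sets of Lasp1, 5 lay above SAMP8 on all 4 Random antisense arrays, as 3.91% of all probe sets did, and the gap of Lasp1 changed by -0.21 there. The brightest probe set of Ube2b lay below SAMP8 on all 4, as 4.2% of all did. Of the gaps 1 of 6 lay wholly below SAMP8, as 2.33% of all gaps did. It was that of Trappc13, at -0.26 to 0.14 against 0.18 to 0.32, a difference of -0.24 (unadjusted p = 0.168 in limma), the same direction as after AβPP antisense.

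The AβPP antisense arrays differed in how low the 6 probe sets were. Their median distance from the Random antisense mean was -1.49, -1.60, -0.85 and -1.95 on arrays 1 to 4, and all 6 were below it on each of the 4 arrays. Array 3, whose 3' to 5' differences were those of the other groups, had the smallest distance for Ube2b (-2.51), Acbd3 (-0.74), Lasp1 (-0.63) and Mzt1 (-0.79) and the largest for Plekhh1 (-2.20). Array 1, at a beta-actin difference of 1.60, was close to array 3 for Ube2b (-2.52) and Mzt1 (-0.85). It was further from it for Acbd3 (-1.82) and Lasp1 (-1.65). For Trappc13 the distance on array 3 was -0.92, beside -0.90, -0.83 and -1.08 on arrays 1, 2 and 4. With the beta-actin difference as a covariate the differences from Random antisense were -2.64 for Ube2b, -1.60 for Plekhh1, -1.31 for Acbd3, -1.20 for Mzt1, -1.15 for Lasp1 and -0.86 for Trappc13. Mzt1 and Lasp1 then lost their calls (adjusted p = 0.0910 and 0.0682 in limma). Without AβPP antisense 4 the 6 differences were -2.74, -1.55, -1.40, -1.25, -1.28 and -0.88 in the same order, all closer to 0 than with it. Ube2b and Trappc13 kept their calls with each of the 16 arrays left out in turn. Acbd3 and Plekhh1 lost theirs without Random antisense 1, 2 or 3 (highest adjusted p in limma 0.0938 and 0.117). Mzt1 kept its call in 4 of the 16 fits, those without Control 4 or AβPP antisense 1, 2 or 3. Lasp1 kept its call in 3, those without Control 4, SAMP8 2 or AβPP antisense 3, and 0 of the 6 passed when the fit held the 8 arrays of these groups alone.

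**Figure D4:**
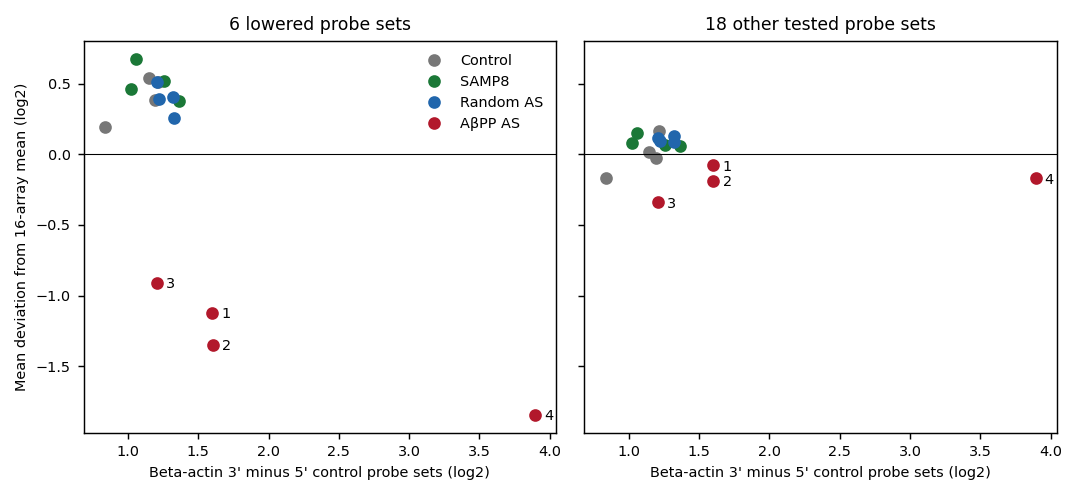
Mean deviation of the 6 lowered probe sets (left) and of the 18 other tested ones, averaged first within a gene (right), from their 16-array means (log2), against the 3' minus 5' difference of the beta-actin controls (log2), 1 point per array with AβPP antisense arrays numbered. AβPP antisense 3 lies at a beta-actin difference of 1.21, within the 0.84 to 1.36 of the other groups, with a deviation of -0.91 where the other groups lie between 0.19 and 0.68. In the right panel it is the lowest of all 16 at -0.34, and the 4 AβPP antisense arrays at -0.34 to -0.08 lie below the Random antisense arrays at 0.09 to 0.13. Control 4 lies at -0.17 there, within the range of the AβPP antisense arrays.

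Outside the AβPP antisense group the 6 lowered probe sets had correlations of either sign with each other. Over the 12 other arrays the 15 pairs of them had Pearson correlations of -0.41 to 0.64, with a median of -0.04 and 7 of 15 above 0. Ube2b with Plekhh1 had the highest. Over the same arrays each lowered probe set correlated with the other probe sets of its own gene at 0.02 to 0.91, with a median of 0.42 and 18 of 18 above 0. For Ube2b these were 0.91, 0.84 and 0.15, for Plekhh1 0.81 and 0.76, and for Mzt1 0.68 and 0.64. For Acbd3 they were 0.63, 0.53 and 0.37, for Lasp1 0.05 to 0.47, and for Trappc13 0.22 and 0.02. The values share array and normalization, and 12 arrays give a coarse estimate.

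The probe sets of other genes most like the mean of the 6 over all 16 arrays were those of Dync1li1 (r = 0.97), Nudt4 (0.96), Pafah1b1 (0.95), Bpnt1 (0.95), Kcna6 (0.95), Nars (0.94), Tspan2 (0.94) and Ube2k (0.94). They include a dynein chain (Dync1li1), the dynein regulator Pafah1b1, a potassium channel (Kcna6) and another ubiquitin-conjugating enzyme (Ube2k). The 4 AβPP antisense arrays that chose the 6 are among the 16. Their differences from Random antisense ranged from -3.08 for Dync1li1 to -0.63 for Nars. App, the gene the oligonucleotide is directed at, differed by -0.22 and -1.05 on its tested probe sets (adjusted p = 0.503 and 0.359 in limma). Without AβPP antisense 4, which read 10.59 on the second of them beside 12.81, 13.27 and 13.35, these differences were -0.13 and -0.41.

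None of the listed genes that work with the 6 passed the threshold. Lists of partners and relatives hold 89 genes beside the 6, of which 84 were measured by their brightest tested probe set. In AβPP antisense minus Random antisense, 0 of the 84 rose or fell in limma and 10 had an unadjusted p under 0.05, where 8.84% of all genes did. The median was 0.01, with 40 negative, beside 0.04 and 43.2% negative over all 11465 genes. Among 15 genes around RAD6, Ube2a, the paralog of Ube2b, read 10.61 ± 0.33 against 10.42 ± 0.07, a difference of 0.18 (SE 0.16), and the extremes were Ube2n (-0.42), an E2 that acts after RAD6 on PCNA, and Rad18 (0.37), a ligase that pairs with RAD6. Among 15 TRAPP and Rab1 genes the median was -0.04, from Rab1a (-0.41), the GTPase that TRAPP activates, to Trappc1 (0.28).

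Among 16 Golgi and acyl-CoA binding genes the median was 0.05, from Pi4kb (-0.59), the kinase that Acbd3 recruits, to Golgb1 (0.46), the Golgi protein giantin. The 19 genes listed around gamma-tubulin include augmin subunits, among them Haus7 (0.68), the highest. Of the 19, 7 were negative, and the lowest was Tubg1 (-0.41), the gamma-tubulin of the ring complex itself. Mzt2, the other small protein of that complex, was at 9.29 ± 0.17 against 8.91 ± 0.09, a difference of 0.38 (SE 0.11, adjusted p = 0.214 in limma). Of 16 actin adaptor genes 10 were negative, from Enah (-0.34) to Vcl (0.26), and Nebl, the nearest relative of Lasp1 in the list, had -0.18 (SE 0.26). Plekhh2 had -0.30 (SE 0.16) and Plekhh3 0.14 (SE 0.11). In untreated SAMP8 minus Control 0 of the 84 passed and 4 had an unadjusted p under 0.05, led in size by Vasp (-1.09, adjusted p = 0.898) and Pi4kb (-1.06, adjusted p = 0.161).

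The sequences before the starts of the 6 genes are given as context for members that were lower on the same arrays. RefSeq's table on GRCm38.p6 gave windows for 5 of the 6, with 2 starts for Ube2b and 1 for each of the others. Acbd3 is not matched there. The 250 bases before a start had a GC content of 74.0% and 44 CpG pairs for Mzt1, more CpG than 99.5% of 32851 windows, and 39.2% and 10 for Trappc13, more than 62.2%. Mzt1 and Trappc13 are shown as the richest and poorest of the 5 in GC, 5′ to 3′ on the minus strand, with capitals for the motifs named below.
Mzt1 (chr14:99046137-99046386, minus strand, GRCm38.p6): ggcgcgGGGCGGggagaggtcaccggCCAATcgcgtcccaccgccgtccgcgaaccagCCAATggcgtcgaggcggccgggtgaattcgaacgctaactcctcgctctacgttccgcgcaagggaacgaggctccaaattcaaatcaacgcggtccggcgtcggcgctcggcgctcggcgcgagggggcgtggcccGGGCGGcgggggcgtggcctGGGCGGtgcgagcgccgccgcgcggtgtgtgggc
Trappc13 (chr13:104178467-104178716, minus strand, GRCm38.p6): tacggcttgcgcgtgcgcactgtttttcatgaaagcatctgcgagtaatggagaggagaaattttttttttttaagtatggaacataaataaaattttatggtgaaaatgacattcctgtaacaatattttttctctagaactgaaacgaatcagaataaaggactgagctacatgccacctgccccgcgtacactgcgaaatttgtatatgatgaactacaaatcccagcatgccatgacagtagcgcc
On either strand, GGGCGG, a GC box, was in 3 of the 6 windows and in 32.7% of all, CCAAT in 1 and in 33.8%, CACGTG in 2 and in 6.0%, TATAAA in 0 and in 12.4%, and TGACGTCA in 0 and in 1.5%. None of these 5 motifs was in all 6 windows, and the window of Trappc13 held none of them. The probes' own sequences were not used here, so the place of a lowered probe set within its transcript is not given. RefSeq lists 6 transcript models for Ube2b, 4 for Trappc13, 3 each for Plekhh1 and Lasp1, 2 for Mzt1 and 1 for Acbd3, and the median protein-coding gene has 2.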

How the data were processed

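Hippocampal RNA of 16 mice (4 µg of total RNA per array) was measured on Affymetrix arrays. The authors deposited log2 values made with GCRMA, which corrects background, normalizes between arrays and summarises probes by set, as the submitters' processing notes name it, per the labels; no version is stated there. Scanned intensities were not used here. Gene symbols came from GEO's platform annotation: of 45101 probe sets, 64 are controls, 34945 have 1 symbol, 932 several and 9160 none. Groups and replicates came from sample titles, which call the samples biological replicates.

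A probe set was tested where it was over 4 log2 on at least 4 arrays, which left 23905. Of the 6 lowered probe sets, those of Ube2b and Lasp1 pass only with arrays of the other groups; the other 4 pass on the AβPP antisense arrays alone. limma 3.58.1 in R 4.3.3 fitted a one-way layout of 4 groups (residual degrees of freedom 12), as the design text names a one-way ANOVA, with Benjamini-Hochberg adjustment over all probe sets, or over all 14291 gaps, of a comparison. The brightest tested probe set stands for a gene in lists. The named genes are the 6 members, their fixed paralogs and partners, App and the 8 probe sets of highest correlation; the extremes of each list were picked after their values were seen. Members and lists were chosen with earlier results of these data known. Both fits were run on simulated data with independent noise of equal spread in all groups. These arrays spread unequally between groups, so the runs do not show how the fits perform here. Alternatives were other filters, fits, array sets and normalization. Precision is limited by 4 arrays in a group. RefSeq windows on GRCm38.p6 were matched by symbol; the sources name no build for the arrays, so no gene coordinates are given. Figures used matplotlib 3.10.9 in Python 3.11.15.

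Replicate numbers recur across groups and were checked by correlating the arrays' deviations around their group means.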

Additional observations from a re-analysis of the deposited data

Results flagged for a closer look

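In 48 sets of 4 arrays (6 lowered probe sets, as values and as gaps, in 4 groups), 7 had 1 array far from the other 3; chance alone gives about 1 in 20, and values and gaps share arrays. For Ube2b, SAMP8 3 read 8.36 beside 7.80 to 7.88, Random antisense 3 read 7.996 beside 7.62 to 7.67, and the gap of SAMP8 3 was -3.25 beside -3.57 to -3.53. For Acbd3, Random antisense 4 read 5.71 beside 6.23 to 6.28. For Lasp1, SAMP8 2 read 4.70 beside 5.41 to 5.48, and its gap was -6.33 beside -5.65 to -5.55. For Trappc13, SAMP8 3 read 8.75 beside 8.46 to 8.50. None of the 7 is an AβPP antisense array.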

How the results depend on the processing

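All 6 lowered probe sets and their gaps kept a negative difference from Random antisense in every alternative run. The alternatives reuse the arrays on which these probe sets were chosen as lower, so the sign is a description and nothing is read from it. Of the 24 member probe sets, 6 passed in AβPP antisense minus Random antisense and 7 in AβPP antisense minus SAMP8. These counts were 3 and 4 with no filter, 0 and 1 in fits of only the 8 arrays compared, and 3 and 4 with plain one-way ANOVA variances; the first was 3 with Random antisense 1 counted as untreated SAMP8. With 1 array left out in turn they ranged from 2 to 8 and from 4 to 8; the lowest, 2, came without Random antisense 1, 2 or 3. Of the 6 gaps, 2 and 4 passed. The gap counts were 1 and 1 with only the 8 arrays compared, 1 for the first with the brightest other probe set as reference, 2 for the second with plain variances or with the beta-actin covariate, and 1 to 5 and 2 to 5 with 1 array left out. The gap of Plekhh1 was -0.16 with that covariate. Counts of 0 in the comparisons without AβPP antisense stayed at 0 in all alternatives.

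Over all features, the 20 probe sets and 14 gaps called in AβPP antisense minus Random antisense became 896 and 2459 without AβPP antisense 3, 199 and 58 without Control 4 and AβPP antisense 4, 68 and 31 without AβPP antisense 4, 58 and 16 without Control 4, 59 and 28 with the covariate, 35 and 39 with array weights, 13 and 10 with the stricter filter, 13 and 10 with Random antisense 1 counted as untreated, and 0 and 1 with only the 8 arrays compared. The gap count was 24 with no filter and 7 against the brightest other probe set. Over the fits without 1 array the counts ranged from 11 to 896 and from 4 to 2459. The cause was not tested.

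Small values that passed in no fit changed sign. In SAMP8 minus Control, the Plekhh1 probe set (0.20) was -0.092 with array weights, -0.00046 without Control 4 and AβPP antisense 4, and -0.00046 to 0.34 with 1 array left out; that of Mzt1 (-0.05) ranged from -0.12 to 0.035, and the Acbd3 gap (-0.04) from -0.14 to 0.040 and was 0.022 with array weights. In Random antisense minus SAMP8, Lasp1 (0.09) was -0.032 with Random antisense 1 counted as untreated and -0.10 to 0.16 with 1 array left out. The Mzt1 gap there (-0.01) was 0.0084 with no filter, 0.0048 with the covariate and -0.035 to 0.036 with 1 array left out, and the Plekhh1 gap (-0.09) was 0.011 against the brightest other probe set.

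With a replicate block 4 of the 24 probe sets and 2 of the 6 gaps passed in AβPP antisense minus Random antisense. Over 24 pairs of arrays with the same number the deviations correlated at -0.27 to 0.24, 9 of them over 0.1, against 12 of 72 pairs with different numbers. Not every same-number pair was over 0.1 and the labels name no shared source, so the numbers were not taken to pair the arrays. A rule that every pair be over 0.1 would miss a weak shared source, so this check cannot exclude one. The Lasp1 probe set gave no value at the stricter filter of 6 log2, which it did not pass.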
